A study of Mus musculus with 14 samples.

Results

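Chromatin-modifying enzymes and remodelers were described across 14 one-colour microarrays of RNA from mouse macrophages. Members were the probes whose gene symbol in the platform annotation belongs to the families Hdac, Sirt, Kdm, Kmt, Kat, Smarc, Dnmt, Ezh, Setd, Chd or Brd. The rule used names alone and no measured value. It found 57 probes for 55 genes among 10012 probes: 8 Hdac, 5 Sirt, 7 Kdm, 2 Kmt, 5 Kat, 12 Smarc, 3 Dnmt, 2 Ezh, 5 Setd, 5 Chd and 3 Brd probes. All 57 passed the filter on low values, which kept 9584 probes. Kdm6b, Setdb2, Hdac4 and Smarca4, which are known in macrophage activation, have no probe under those symbols and were not analysed here.

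The cells of every group came from female mice of the strain C57BL/6, 6 weeks old, and were thioglycollate-elicited macrophages, which the broth draws into the peritoneum. Each of the 7 groups had 2 arrays: untreated cells, cells given LPS (a bacterial ligand of TLR4) or poly(I:C) (double-stranded RNA made in the laboratory, sensed by TLR3), and cells given either stimulus together with GW3965, which activates liver X receptors, or GW7845, which activates PPARγ. No cells received an agonist alone. The sources used here state neither dose nor time. The labels state 2 biological replicates for a condition without saying whether one was 1 animal or pooled cells, so p-values measure the spread between these samples.

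DNA in the nucleus is wound on histones, and the enzymes described here set how open that packing is. Acetyltransferases (Kat) place acetyl groups on histones, deacetylases (Hdac, and the NAD-dependent Sirt family) remove them, and bromodomain proteins (Brd) bind them. Methyltransferases (Kmt, Setd, Ezh) and demethylases (Kdm) write and erase methyl groups on histones, and Dnmt enzymes methylate DNA itself. Smarc and Chd proteins are ATPases, or their partners, that slide or evict nucleosomes. In macrophages such enzymes are known to sit at inflammatory promoters and enhancers, both as restraints before a stimulus and as coactivators after it.

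Levels are log2 intensities on arrays that the authors scaled to a median of 1, so 0 is the median probe of an array. The arrays fell into 2 sets of 7 by their missing values, here set A and set B, with 1 array of each group in each. Values of 29 probes were absent throughout set A yet present throughout set B, and 30 probes showed the reverse. The 10th percentile of intensity was 0.137 to 0.271 in set A and 0.0549 to 0.0833 in set B. The lowest was that of untreated 2, where 14.3% of values lay at the floor that was set before log2 was taken. That share was 7.07% to 9.59% on the other set B arrays and 0.83% to 2.55% in set A. Values below are given as set A, then set B, and each difference also has an adjusted p from a fit with the set as a block, called the array-set fit. Set A holds replicate 1 of every group except GW7845 + LPS, where it holds replicate 2. The 5 genes kept as a check of the stimuli (Il6, Tnf, Il1b, Cxcl10 and Ifit1) all rose, their summed intensity going from 2.7 to 4.199 on the untreated arrays to 1291 to 4167 on the 12 stimulated arrays. The summed intensity of 9 macrophage markers was 1934 to 4102 untreated and 2192 to 4428 stimulated, that of 8 B cell markers 38.93 to 40.34 and 29.71 to 64.18, that of 9 T and NK cell markers 21.4 to 29.1 and 18.04 to 33.45, and that of 6 neutrophil markers 16.65 to 28.84 and 16.46 to 60.44. For 8 mast cell and eosinophil markers the sums were 9.111 to 11.17 and 11.59 to 17.2, and for 10 fibroblast and mesothelial markers 9.409 to 11.44 and 9.111 to 14.18. Of these markers Cd14, Msr1 and Adgre1 of macrophages and Camp of neutrophils (+3.99 over the stimulated groups, SE 0.43) passed the test without a block, all higher. The array-set fit also called Cd79b of B cells, Cd2 of T and NK cells and Ltf of neutrophils lower over all groups. Of the B cell markers it called 1 higher under LPS and 2 lower under poly(I:C). The part of other cell types in the results below was not tested.

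The first question was which of these enzymes changed when the cells were stimulated. A histone deacetylase, Hdac5, and a DNA methyltransferase, Dnmt3a, fell under LPS and under poly(I:C), by about the same amounts in both. Over all 6 stimulated groups, Sirt3 and Chd3 also fell, and Chd1 and Kmt5a rose. These 6 were called by limma without a block (Benjamini-Hochberg adjusted p under 0.05 over all tested probes), 6 of the 57 members where 12.6% of all probes were called. Higher were 2 members (7.41% of all probes) and lower 4 (5.16% of all probes), so the members were called at a share near that of the whole array. For LPS alone 2 members were called, where 7.8% of all probes were, and for poly(I:C) alone 3 members, where 8.86% of all probes were. The 3 comparisons share the untreated arrays, and the one over all 6 groups contains the arrays of the others, so they are not independent of each other.

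Hdac5 is a class IIa histone deacetylase, known as a signal-dependent corepressor of MEF2 factors that shuttles between nucleus and cytoplasm. Its level was 4.24 and 3.51 on the untreated arrays, 0.64 and 0.23 with LPS, 0.33 and 0.92 with GW3965 + LPS and 1.11 and 0.43 with GW7845 + LPS. It was 0.36 and -0.19 with poly(I:C), 0.49 and 0.76 with GW3965 + poly(I:C) and 1.16 and -0.29 with GW7845 + poly(I:C). Both untreated arrays lay more than 2 log2 units above every stimulated array, and the stimulated arrays lay between -0.29 and 1.16. The fall was 3.43 on the log2 scale under LPS (difference -3.43, SE 0.49, limma adjusted p = 0.000423), or 10.8-fold, and 3.79 under poly(I:C) (difference -3.79, SE 0.49, limma adjusted p = 0.000153), or 13.8-fold. Over all 6 stimulated groups it was -3.38 (SE 0.38, limma adjusted p = 2.5e-05), with -3.56 within set A and -3.20 within set B. The call held when any 1 array was left out, with differences from -3.74 to -3.01. In RNA of whole cultures, fewer cells with a transcript and less transcript in each cell cannot be told apart.

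Dnmt3a places new methyl groups on unmethylated DNA. Its level was 6.85 and 6.62 untreated, 4.10 and 4.05 with LPS, 3.65 and 4.25 with GW3965 + LPS and 3.39 and 3.88 with GW7845 + LPS. It was 3.84 and 4.29 with poly(I:C), 3.60 and 3.96 with GW3965 + poly(I:C), and 1.91 and 3.66 with GW7845 + poly(I:C). The untreated arrays again stood clear of every stimulated array, and the one low value in the stimulated groups was the array titled GW7845 + poly(I:C) 1. The difference was -2.66 under LPS (SE 0.48, limma adjusted p = 0.00257), -2.67 under poly(I:C) (SE 0.48, limma adjusted p = 0.0022) and -3.02 over all 6 groups (SE 0.37, limma adjusted p = 5.3e-05), an 8.1-fold fall. Left out singly, no array ended the call, and the difference over all groups ran from -3.16 to -2.87. Dnmt3b, the related de novo enzyme, stood at 0.90 and 0.56 untreated and at -0.80 to 1.28 on the stimulated arrays, and its difference of -0.82 (SE 0.43) did not pass in either fit. Dnmt1, which copies methylation at replication, had a difference of -0.26 (SE 0.73), with a 95% interval of -1.83 to 1.30 that leaves its change unbounded at 2-fold.

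Sirt3 encodes the main deacetylase of mitochondria. It was at 1.73 and 0.10 untreated and between -1.93 and -0.13 on the stimulated arrays, with LPS at -0.26 and -1.93 and poly(I:C) at -0.36 and -1.80. The groups did not overlap, but set A read higher than set B in every group. Over all stimulated groups Sirt3 fell by 1.88 (difference -1.88, SE 0.58, limma adjusted p = 0.048, array-set fit 0.000251), 3.69-fold, with -2.13 in set A and -1.64 in set B. Without a block the call was near its threshold: it was lost when any of 9 of the 14 arrays was left out (untreated 1, LPS 2, both of GW3965 + LPS, both of GW7845 + LPS, and replicate 2 of each poly(I:C) group), down to -1.07 (adjusted p = 0.598) without untreated 1. Among the other sirtuins, Sirt5, also mitochondrial, was at -1.22 and -1.58 untreated, above its stimulated range of -3.43 to -1.75, and its difference of -1.05 (SE 0.57) did not pass. Sirt1, the nuclear sirtuin known to deacetylate the NF-κB subunit p65, was at 3.55 and 2.93 untreated and 2.17 to 3.94 stimulated. Its difference of -0.28 (SE 0.33) had an interval of -0.99 to 0.42, inside a 2-fold change either way.

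**Figure D1:**
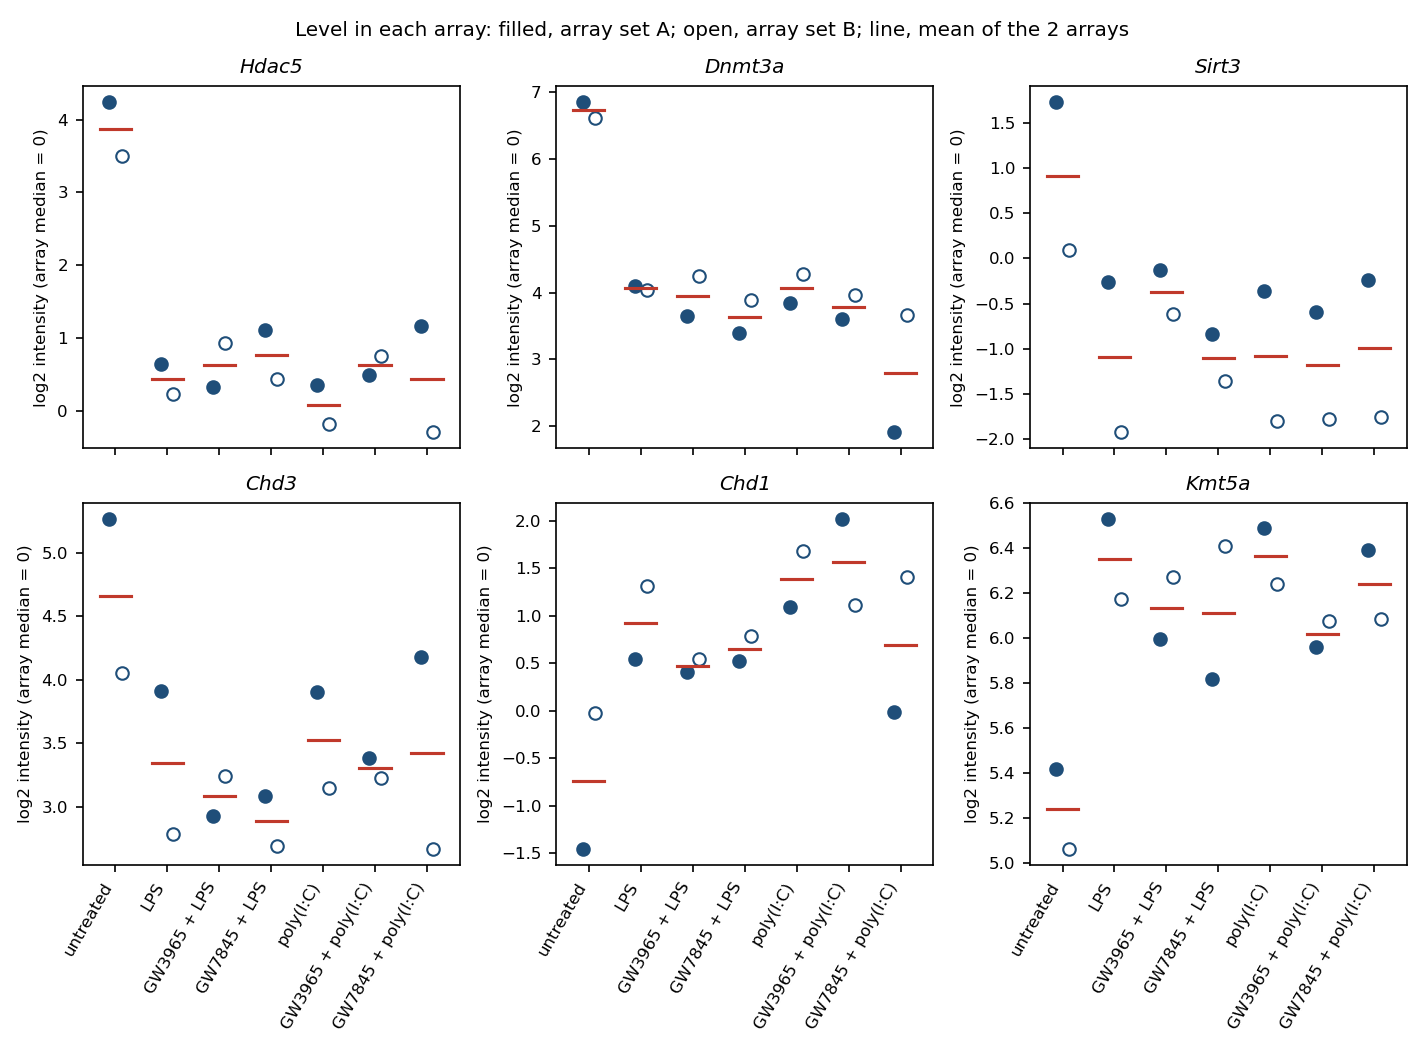
Log2 intensity of the 6 called members on every array (y axis, 0 is the array's median probe) in the 7 groups (x axis). Filled points are set A, open points set B, and the line is the mean of the 2 arrays. The untreated Hdac5 points at 4.24 and 3.51 and Dnmt3a points at 6.85 and 6.62 lie above every stimulated array, while the Chd3 points overlap.

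Chd3 and Chd1 are related ATPases with opposite textbook roles. Chd3 is a motor of the repressive NuRD complex, and Chd1 binds methylated histone H3 at active promoters. Chd3 was at 5.26 and 4.05 untreated, 3.91 and 2.79 with LPS, 3.91 and 3.15 with poly(I:C), and 2.67 to 4.18 over the 12 stimulated arrays. The lower untreated array lay inside the stimulated range, in GW7845 + poly(I:C) 1. Over all groups Chd3 fell by 1.39 (difference -1.39, SE 0.41, limma adjusted p = 0.041, array-set fit 0.00214), with -1.70 in set A and -1.09 in set B. That call was lost without any of 8 of the 14 arrays (untreated 1, poly(I:C) 2 and both of GW3965 + LPS, GW7845 + LPS and GW3965 + poly(I:C)), at -0.79 (adjusted p = 0.565) without untreated 1.

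Chd1 was at -1.45 and -0.03 untreated, 0.54 and 1.31 with LPS, 0.40 and 0.55 with GW3965 + LPS and 0.52 and 0.79 with GW7845 + LPS. It was at 1.09 and 1.68 with poly(I:C), 2.02 and 1.11 with GW3965 + poly(I:C), and -0.02 and 1.41 with GW7845 + poly(I:C). Every stimulated array was above both untreated ones, the lowest of them by a hair. Chd1 rose by 2.13 under poly(I:C) (SE 0.56, limma adjusted p = 0.029) and by 1.69 over all groups (SE 0.43, limma adjusted p = 0.017, array-set fit 0.00236), a 3.23-fold increase. Under LPS it was +1.67 (SE 0.56, limma adjusted p = 0.102) and passed in the array-set fit (0.0204). The array untreated 1 carried much of the size: without it the difference over all groups was 0.98 (adjusted p = 0.427), and within the sets it was 2.21 in A and 1.17 in B. The poly(I:C) call was also lost without untreated 1 and without either poly(I:C) array. It was lost as well when limma was run without the intensity trend (adjusted p = 0.0695). The Chd2 probes did not resemble each other over the 14 arrays (Pearson r = -0.265, Spearman rho = -0.292), the first being near the floor at -3.87 to -0.63, and they differed by +0.69 (SE 0.75) and +0.01 (SE 0.58).

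Kmt5a, the enzyme that adds a single methyl group to a lysine of histone H4, was at 5.42 and 5.07 untreated, 6.53 and 6.17 with LPS, 6.49 and 6.24 with poly(I:C), and 5.82 to 6.53 over all stimulated arrays. The groups were apart, and the spread was small. It rose by 0.96 over all groups (SE 0.27, limma adjusted p = 0.029, array-set fit 0.00357), 1.95-fold, with 0.78 in set A and 1.14 in set B. Under LPS it was +1.11 (SE 0.35, limma adjusted p = 0.077) and under poly(I:C) +1.12 (SE 0.35, limma adjusted p = 0.066), and both passed in the array-set fit. The call over all groups was lost without untreated 1 (1.14, adjusted p = 0.093), untreated 2 (0.78, adjusted p = 0.236), GW3965 + LPS 2 or GW3965 + poly(I:C) 2.

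With the difference between the array sets removed, more members were called, as were more of all probes. The array-set fit called 13 members over all groups, 22.8% of them, beside 25.5% of all probes, and 10 members each under LPS (17.8% of all probes) and poly(I:C) (18.7% of all probes). Of the 13, 10 were lower and 3 higher, where 12.6% and 12.9% of all probes were called lower and higher. The members called by that fit and not by the fit without a block were Hdac6, Ezh1, Kdm6a, Smarcd2, Smarcc1 and Kat14 lower and Brd2 higher over all groups, and, for a single stimulus, Kdm5d under LPS and Smarce1 under poly(I:C).

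Hdac6, a mostly cytoplasmic deacetylase of tubulin, was at 2.02 and 1.09 untreated and -0.33 to 1.63 stimulated, so its groups overlapped. Its difference was -1.28 (SE 0.43, limma adjusted p = 0.074, array-set fit 0.00715), and only the array GW7845 + poly(I:C) 1 reached into the untreated range. The fit without a block called it without that array (-1.44, limma adjusted p = 0.0102) and also without GW7845 + poly(I:C) 2, which did not overlap (-1.11, limma adjusted p = 0.0442). Ezh1, a catalytic subunit of Polycomb repressive complex PRC2, was at 2.42 and 1.71 untreated against 0.07 to 1.60 stimulated, without overlap, a difference of -1.09 (SE 0.41, limma adjusted p = 0.109, array-set fit 0.0082). Its relative Ezh2, known for its place in dividing cells, was at 0.69 and 1.10 untreated and -0.74 to 1.40 stimulated, a difference of -0.24 (SE 0.47) that did not pass. Kdm6a, which removes the histone mark that Ezh1 and Ezh2 place, was at 2.11 and 1.58 untreated and 0.01 to 1.95 stimulated, with a difference of -1.02 (SE 0.39, limma adjusted p = 0.122, array-set fit 0.0109).

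The Smarc probes held the subunits of the BAF remodeler and several relatives. The BAF core subunit Smarcc1 was at 0.87 and 0.05 untreated and -1.30 to 0.06 stimulated, with a difference of -0.96 (SE 0.39, limma adjusted p = 0.144, array-set fit 0.0107). Smarcd2, a BAF subunit known in granulocyte development, was at 1.49 and 1.23 untreated and -0.31 to 0.86 stimulated, with a difference of -1.01 (SE 0.35, limma adjusted p = 0.081, array-set fit 0.0133). Smarcd2 had no overlap, whereas Smarcc1 overlapped in the GW3965 + LPS group. With a stimulus and no agonist, Smarcd2 differed by -0.96 (SE 0.46) under LPS and -1.02 (SE 0.46) under poly(I:C). It passed in neither fit there. Smarce1 was at 3.61 and 2.67 untreated and 4.66 and 3.35 with poly(I:C), a difference of +0.87 (SE 0.59, limma adjusted p = 0.556, array-set fit 0.0233). Smarcd1, an alternative to Smarcd2 in the complex, was at 1.54 and 1.12 untreated and 1.29 to 1.75 stimulated, and its interval of -0.37 to 0.72 was the narrowest in the family that lay within a 2-fold change. The probes for the ISWI ATPase Smarca5 gave +0.37 (SE 0.26) and -0.27 (SE 0.36) and were weakly related over the arrays (Pearson r = 0.129, Spearman rho = 0.174). Smarca1, the other ISWI ATPase, was at the floor on 3 arrays.

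Among acetylation factors, Kat14, a subunit of the ATAC acetyltransferase complex, was at 3.58 and 3.24 untreated and 2.44 to 2.93 stimulated, without overlap. Its difference was -0.73 (SE 0.23, limma adjusted p = 0.051, array-set fit 0.00744). With quantile normalization Kat14 passed without a block, at -0.80 (adjusted p = 0.018). Brd2, a reader of acetylated histones of the BET family, was at 5.64 and 4.11 untreated, 6.52 and 5.45 with LPS, 7.55 and 5.78 with poly(I:C) and 7.31 and 5.90 with GW7845 + poly(I:C). With GW3965 it was lower, at 4.63 and 4.99 beside LPS and 5.77 and 5.18 beside poly(I:C), and it was 5.30 and 4.54 with GW7845 + LPS. Over all groups the difference was +0.87 (SE 0.51, limma adjusted p = 0.36, array-set fit 0.049), and under poly(I:C) alone it was +1.79 (SE 0.66, limma adjusted p = 0.134, array-set fit 0.00499). Hdac1, a deacetylase of the NuRD, CoREST and Sin3 complexes, was at 1.62 and 1.27 untreated and 1.63 to 3.19 stimulated, apart by the narrowest margin, and its difference of +0.83 (SE 0.33, limma adjusted p = 0.137, array-set fit 0.057) passed in neither fit.

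**Figure D2:**
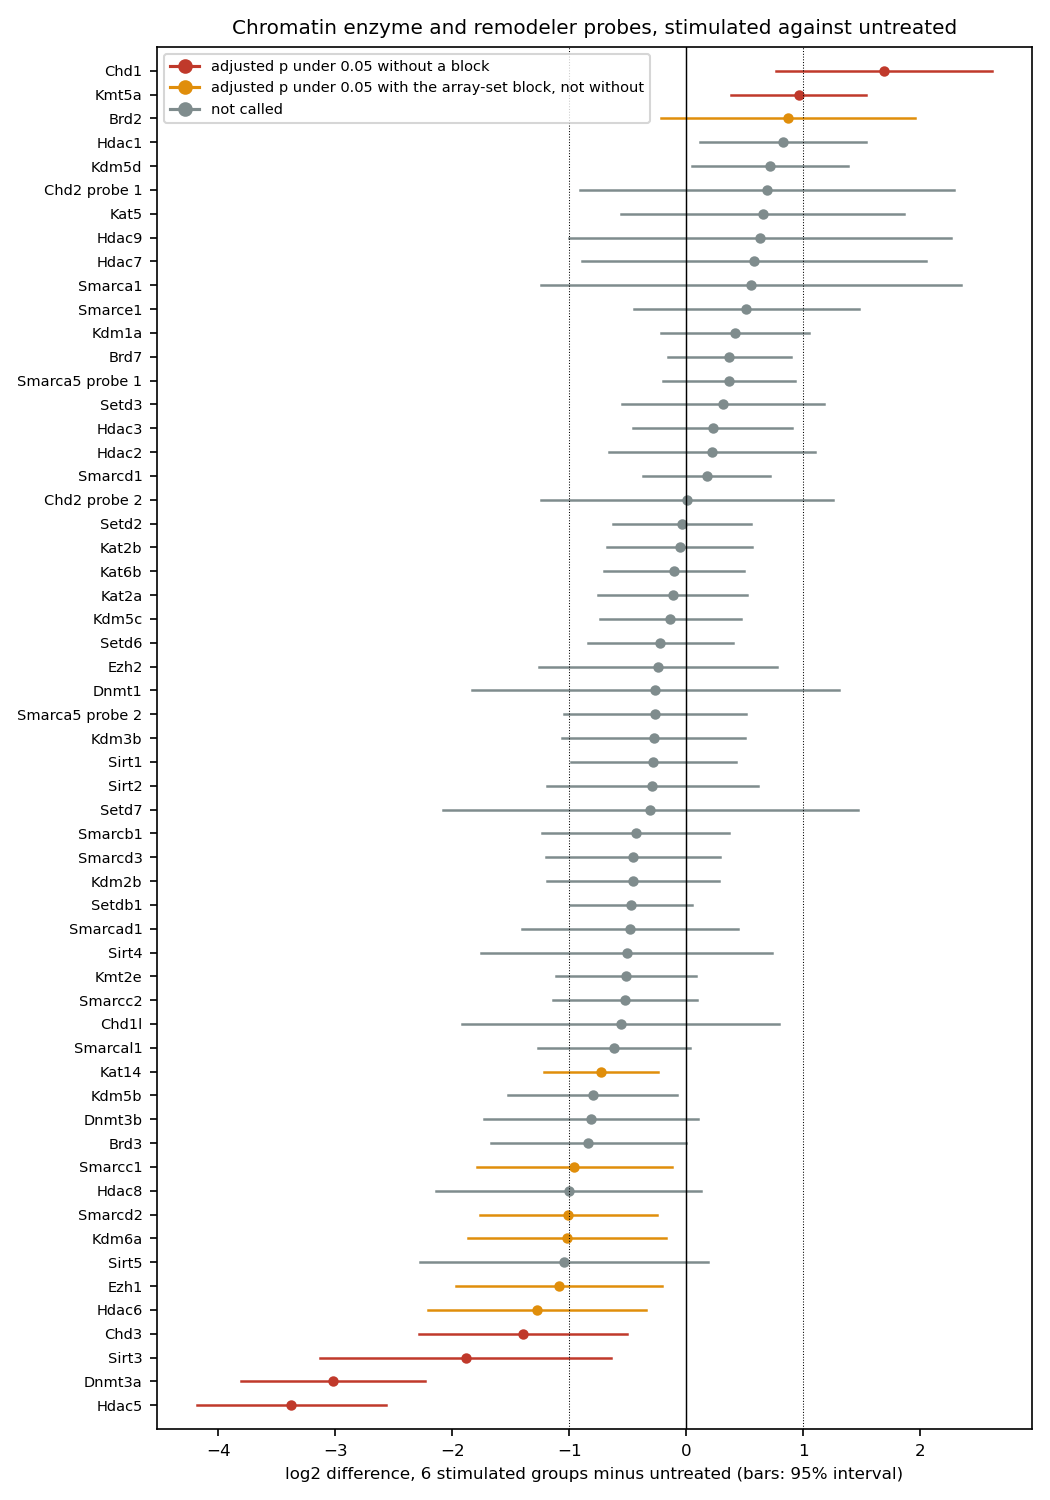
Log2 difference of each of the 57 probes (x axis, mean of the 6 stimulated groups minus untreated) with its 95% interval from the fit without a block. Red marks the 6 members called by that fit, orange the 7 called by the array-set fit and not by that one, grey the rest, and dotted lines a 2-fold change. Hdac5 at -3.38 and Dnmt3a at -3.02 are the lowest, and Chd1 at +1.69 is the highest.

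Other members known in macrophages gave bounds or were too dim to do so. Hdac3, the deacetylase of the NCoR corepressor, was at 0.84 and 1.26 untreated and 0.58 to 1.71 stimulated, a difference of +0.23 (SE 0.32) with an interval of -0.45 to 0.91. Hdac7 and Hdac9, class IIa relatives of Hdac5, were at -3.65 and -3.46 and at -3.20 and -3.87 untreated, and each lay at the floor on 3 arrays, so their differences of +0.58 (SE 0.68) and +0.63 (SE 0.76) carry little. Setdb1, a repressive histone H3 methyltransferase, was at 2.65 and 2.57 untreated and 1.84 to 2.38 stimulated, without overlap, yet its difference of -0.47 (SE 0.24, limma adjusted p = 0.28) did not pass. Kdm5c, a histone H3 demethylase, had a difference of -0.13 (SE 0.28) and Brd7, a subunit of a BAF variant, one of +0.37 (SE 0.24). In all, 12 of the 57 probes had a 95% interval within a 2-fold change either way, among them Setd2, Kat2a, Kat2b and Kat6b. Setd7 was missing on GW3965 + poly(I:C) 2, and its fit dropped that array.

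The remaining members passed in neither fit over all groups. Among those not yet described, closest to the threshold in the array-set fit were Hdac8, a class I deacetylase, at -1.004 (SE 0.53, array-set adjusted p = 0.0555 by limma), and Kdm5b, a histone H3 demethylase, at -0.80 (SE 0.34, array-set adjusted p = 0.0659 by limma). Hdac8 stood at -0.75 and -0.49 untreated and at -2.65 to 0.12 stimulated, where the array GW3965 + LPS 1 was the single one above the untreated level. The BET protein Brd3 was at 4.39 and 3.52 untreated and 2.41 to 4.36 stimulated, a difference of -0.84 (SE 0.39), opposite in sign to its relative Brd2, though neither passed without a block. Kdm1a, the flavin-dependent demethylase of the CoREST complex, differed by +0.42 (SE 0.29), and Kat5, the acetyltransferase known as Tip60, by +0.65 (SE 0.56). The BAF subunits Smarcc2 and Smarcb1 differed by -0.52 (SE 0.29) and -0.43 (SE 0.37), and Smarcc2 at 1.62 and 1.63 lay above its stimulated range of 0.27 to 1.54. Sirt2, a largely cytoplasmic sirtuin, read 7.39 and 5.88 untreated and 5.68 to 7.08 stimulated, with set A above set B in every group and a difference of -0.29 (SE 0.42). Differences of Sirt4, Kdm2b, Kdm3b, Smarcal1, Smarcd3, Smarcad1, Chd1l, Kmt2e and Setd6 lay between -0.62 (Smarcal1) and -0.22 (Setd6), and those of Setd3 and Smarca1 were +0.32 and +0.55.

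Kdm5d lies on the Y chromosome, and the mice are labelled female. Its probe read 0.13 and 0.02 untreated, 1.36 and 1.28 with LPS and 0.63 and 0.29 with poly(I:C), with a median of 0.74 over all arrays. It was higher on both LPS arrays than on both untreated ones. The difference was +1.25 (SE 0.41, limma adjusted p = 0.088, array-set fit 0.0209). Other Y-linked probes had medians of -2.94 (Uty), -2.29 (Zfy1), -3.15 (Zfy2) and 0.29 (Sry), and Xist, expressed from the inactive X chromosome, ran from 1.49 to 3.46. What the Kdm5d probe reads here was not tested. It did not follow its X-linked relative Kdm5c over the 14 arrays (Pearson r = -0.0608).

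Over the whole list, called members included, more probes were below 0 than above. Of the 57 probes, 36 were lower under LPS (63.2%, beside 46.3% of all tested probes), 38 under poly(I:C) (66.7% beside 44.4%) and 38 over all groups (66.7% beside 44.1%). The median difference of the members was -0.26, -0.31 and -0.28 in those comparisons, and that of all probes 0.06, 0.10 and 0.10. Within set A the median of the members over all groups was -0.29 and within set B -0.28. By family, all 5 Sirt, all 3 Dnmt and both Ezh probes had a difference below 0 over all groups, as did 8 of 12 Smarc, 5 of 7 Kdm, 4 of 5 Kat and 4 of 5 Setd probes. Below 0 were also 3 of 8 Hdac, 2 of 5 Chd, 1 of 3 Brd and 1 of 2 Kmt probes, so the share differed by family, and most of these probes passed no test. Both untreated arrays lay above all 12 stimulated arrays for 9 members (15.8%, beside 7.73% of all probes) and below them for 3 (5.26%, beside 9.29%), so 21.1% of members and 17% of all probes were apart in either direction. These counts describe the list and carry no test.

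**Figure D3:**
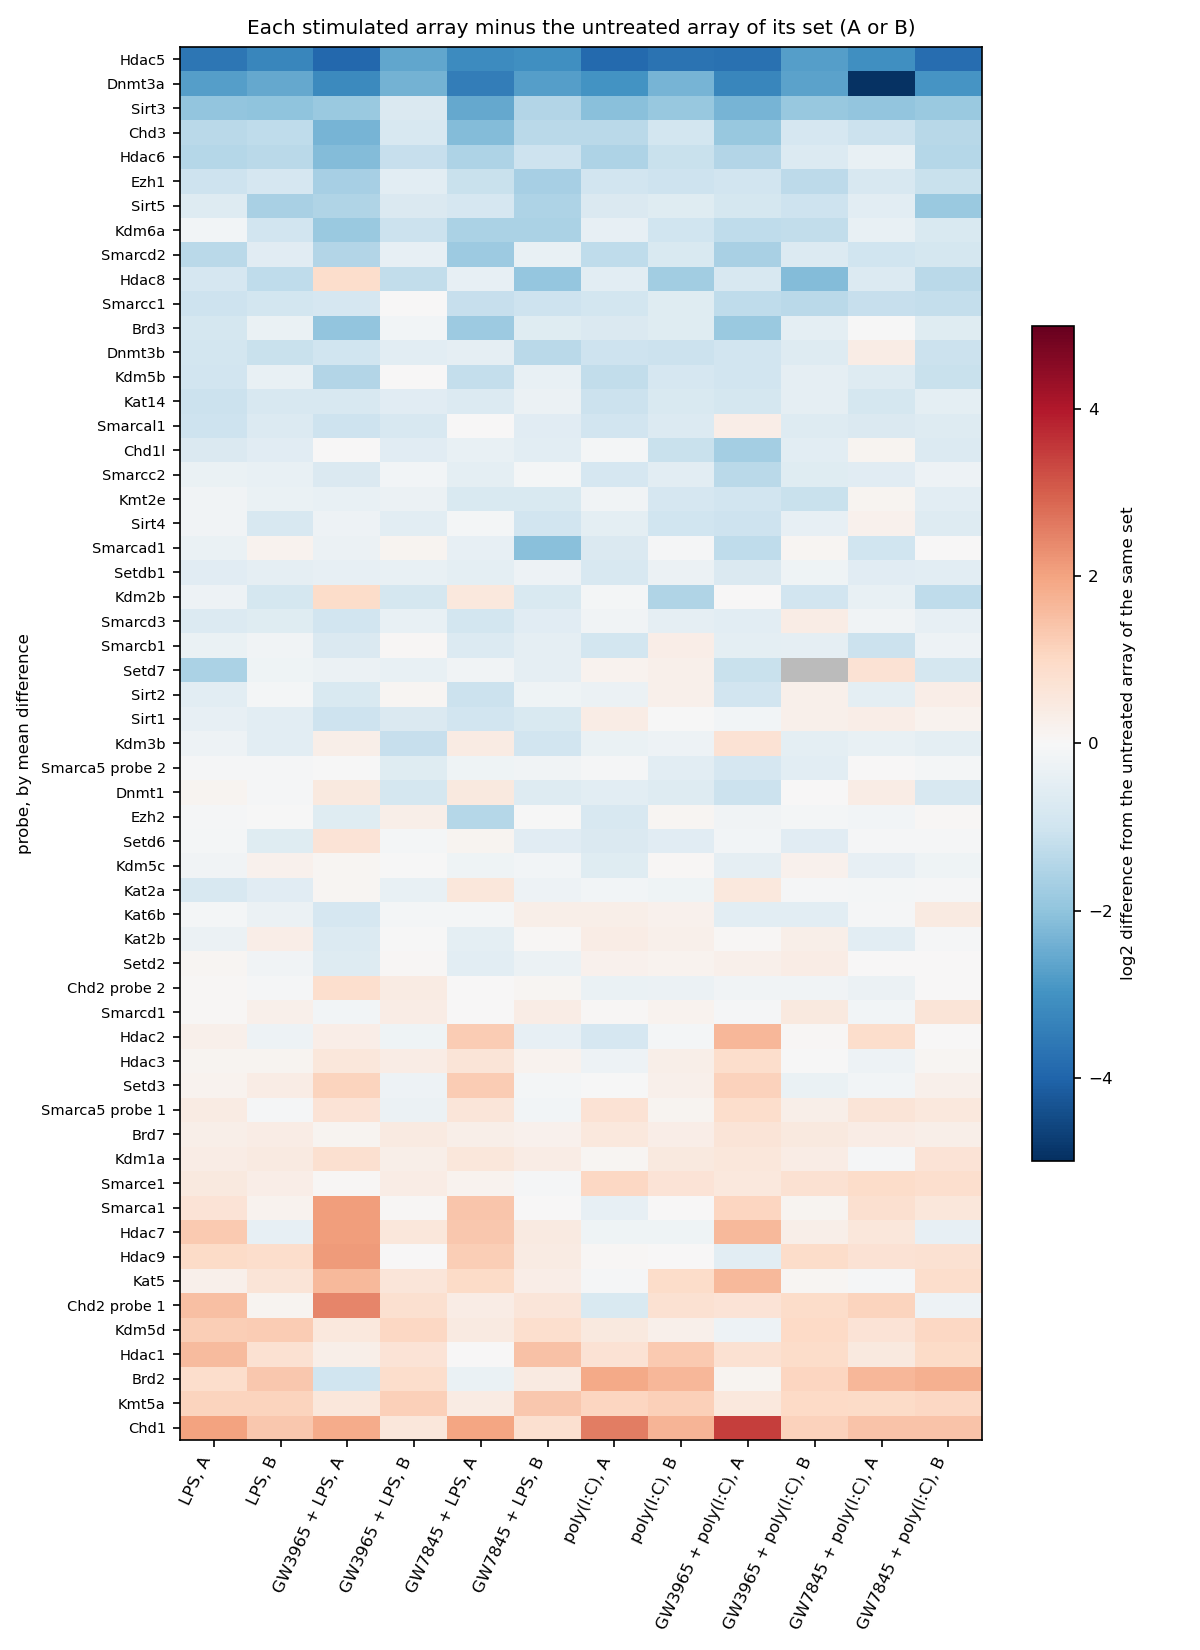
Log2 difference of each stimulated array from the untreated array of its own set (columns, A or B) for the 57 probes (rows, by mean difference over all groups). Blue is lower and red higher than untreated, and grey is the missing Setd7 value. Hdac5 and Dnmt3a are blue on all 12 arrays, and Chd1 and Kmt5a are red on all 12.

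The promoters of 4 called members are printed because they belong to genes called over all stimulated groups. Each is the 250 bases before the most 5′ listed start, from RefSeq on the build GRCm38.p6, and 47 of the 55 genes had an entry. Capitals mark matches on either strand to the GC box GGGCGG, the interferon-stimulated response element (GAAA, any 2 bases, GAAA), the E-box CACGTG or the NF-κB motif (kB). Chd1 and Chd3 are named only. The windows are Hdac5 at chr11:102230173-102230422 (minus strand), Dnmt3a at chr12:3806730-3806979 (plus), Sirt3 at chr7:140882310-140882559 (minus) and Kmt5a at chr5:124439680-124439929 (plus).
Hdac5: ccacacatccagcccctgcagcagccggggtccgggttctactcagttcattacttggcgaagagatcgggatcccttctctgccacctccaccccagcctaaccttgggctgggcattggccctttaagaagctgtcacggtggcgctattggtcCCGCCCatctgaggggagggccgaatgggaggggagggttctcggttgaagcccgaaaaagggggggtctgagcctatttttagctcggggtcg
Dnmt3a: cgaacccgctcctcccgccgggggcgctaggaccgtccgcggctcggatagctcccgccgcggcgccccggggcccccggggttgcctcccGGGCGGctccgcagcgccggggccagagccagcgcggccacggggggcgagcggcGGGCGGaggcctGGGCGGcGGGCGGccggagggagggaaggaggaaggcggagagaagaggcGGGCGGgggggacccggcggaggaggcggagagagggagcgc
Sirt3: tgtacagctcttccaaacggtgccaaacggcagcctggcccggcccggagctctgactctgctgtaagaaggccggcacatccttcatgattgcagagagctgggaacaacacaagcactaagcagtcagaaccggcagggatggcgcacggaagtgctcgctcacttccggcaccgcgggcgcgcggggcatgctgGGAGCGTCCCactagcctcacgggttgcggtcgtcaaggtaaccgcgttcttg
Kmt5a: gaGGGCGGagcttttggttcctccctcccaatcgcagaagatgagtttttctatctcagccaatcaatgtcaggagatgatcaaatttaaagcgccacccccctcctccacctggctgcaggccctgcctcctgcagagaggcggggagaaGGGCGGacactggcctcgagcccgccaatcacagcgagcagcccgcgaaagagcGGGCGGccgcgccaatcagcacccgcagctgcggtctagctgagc
The capitals are 1 GC box in Hdac5, 5 in Dnmt3a, 3 in Kmt5a and 1 kB match in Sirt3. The Dnmt3a window was 82.4% G and C with 38 CpG dinucleotides, against 60.8% and 12 for Hdac5, 62.4% and 21 for Sirt3 and 62% and 16 for Kmt5a. The 68 windows of members had a median of 62% and 18 CpG, and all 32851 windows 52.4% and 6. A GC box was in 60.3% of the windows of members and 32.7% of all, the kB motif in 14.7% and 7.25%, the response element in 2.94% and 2.98% and the E-box in 5.88% and 6.02%. A match of letters is a description and not a binding site.

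The partners of these enzymes that carry other names were read from lists of complexes. The counts below stand beside 7.41% of all probes called higher and 5.16% lower over all groups without a block, and 12.9% and 12.6% in the array-set fit. Of 17 Polycomb genes, 2 rose and 1 fell over all groups without a block: Phc2 at +1.00 (SE 0.25), Jarid2, which guides PRC2 to its targets, at +1.28 (SE 0.38) and the Polycomb reader Cbx8 at -1.87 (SE 0.46). Of 17 corepressor subunits, 1 rose, the Sin3 subunit Sap30 at +1.83 (SE 0.49), and 1 fell, Mta3 of the NuRD complex at -1.10 (SE 0.25). In the array-set fit, where 12.9% of all probes were called higher and 12.6% lower, the corepressor list had 1 higher and 5 lower. The Polycomb list had 3 higher and 1 lower in that fit. Median differences were -0.17 for the Polycomb list and -0.49 for the corepressors, beside 0.10 for all probes.

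Of 9 acetyltransferases and coactivators, 1 rose, Hat1, which acetylates new histone H4, at +1.40 (SE 0.30). Of 23 methyltransferases and demethylases 1 rose and 1 fell: Prdm1 (Blimp-1, a transcriptional repressor) at +2.08 (SE 0.34) and Smyd3 at -2.53 (SE 0.27). Of 8 genes of DNA methylation, 1 rose and 2 fell, with Gadd45b at +2.21 (SE 0.37), Gadd45a at -2.09 (SE 0.34) and the cytidine deaminase Apobec1 at -0.85 (SE 0.25). The Gadd45 genes are stress-response genes linked to DNA demethylation, and they went opposite ways. In the array-set fit (12.9% of all probes higher and 12.6% lower) the coactivator list had 1 higher and 0 lower. The methyltransferase list had 3 and 1, and the DNA methylation list 2 and 2. Median differences of these lists, in that order, were 0.30, 0.12 and 0.28.

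Of 23 other remodeler subunits 1 rose, Daxx, a chaperone of the histone variant H3.3 that is also interferon-induced, at +3.78 (SE 0.33). Of 15 histone chaperones and variants, 2 rose and 1 fell (7.41% and 5.16% of all probes): the chaperone Asf1a at +1.67 (SE 0.28), the H3.3 gene H3f3b at +1.44 (SE 0.35) and the centromeric histone Cenpa at -2.41 (SE 0.29). In the array-set fit the remodeler list had 2 higher and 0 lower, and the chaperone list 3 and 2 (12.9% and 12.6%). Their median differences were 0.13 and 0.04. Of 27 genes of DNA replication and mitosis, whose members go with cell division, 2 rose and 1 fell (7.41% and 5.16% of all probes), and 2 and 6 in the array-set fit (12.9% and 12.6%), with Mki67 at +3.46 (SE 0.25), Tyms at +1.02 (SE 0.29) and E2f1 at -1.41 (SE 0.31). That list's median was -0.42, and its summed intensity was 101.3 to 107.5 untreated and 96.6 to 180.8 stimulated. Its part in the falls of Dnmt3a and Hdac5 was not tested. The limma adjusted p-values of the partner genes named here without a block were highest for Jarid2, at 0.042.

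The next question was whether the stimuli differed. No member was called between poly(I:C) and LPS by limma, with or without the block, where 0.0104% of all probes were without it and 0.0209% with it. The members with an unadjusted p under 0.05 numbered 0 (0.543% of all probes) and, with the block, 2 (3.14%). Kdm5d at -0.86 (SE 0.41) and Sirt1 at +0.66 (SE 0.43) had the smallest p-values, followed by Kat2a, a histone acetyltransferase, at +0.50 (SE 0.39). The sirtuin read 3.13 and 2.42 with LPS and 3.94 and 2.93 with poly(I:C), so the groups overlapped. For 8 of the 57 probes the interval of the difference lay within 2-fold.

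The agonists were then set beside each stimulus. No member was called by limma in any of the 4 agonist comparisons, with or without the block, and across all probes 0.0313% (GW3965 + LPS), 0% (GW7845 + LPS), 0.0104% (GW3965 + poly(I:C)) and 0% (GW7845 + poly(I:C)) were called without it. With it these shares were 0.407%, 0%, 0.073% and 0%. In the same order, the members with an unadjusted p under 0.05 numbered 0, 0, 1 and 1 without the block, beside 3.11%, 1.44%, 1.49% and 0.866% of all probes. With the block they numbered 3, 4, 4 and 1, beside 9.76%, 5.97%, 6.19% and 3.78%, so the members did not stand out. The 95% interval lay within a 2-fold change for 12, 9, 9 and 15 of the 57 probes, so for the other probes a change of that size is not excluded by these arrays. The values below describe the members of smallest p, and none of them passed.

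With LPS, GW3965 gave Brd2 a difference of -1.18 (SE 0.66), Kdm6a one of -0.93 (SE 0.52) and Setd6, a methyltransferase of the NF-κB subunit p65, one of +0.65 (SE 0.38). The Kdm6a arrays read 1.95 and 0.63 with LPS, 0.25 and 0.49 with GW3965 + LPS and 0.53 and 0.01 with GW7845 + LPS. Both agonist groups lay below both LPS arrays, but the sizes differed by set. The GW3965 difference was -1.71 in set A and -0.14 in set B, and the GW7845 difference -1.43 and -0.62. GW7845 with LPS gave Kdm6a -1.03 (SE 0.52), Kat2a +0.83 (SE 0.39) and the remodeler Smarcad1 -1.18 (SE 0.56). Smarcad1 was at 1.01 and -0.89 in that group and 1.11 and 1.37 with LPS, so its difference came from 1 array, GW7845 + LPS 1.

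With poly(I:C), GW3965 gave Hdac2, a class I deacetylase, +1.33 (SE 0.54), Kat6b, an acetyltransferase, -0.78 (SE 0.36) and Brd2 -1.19 (SE 0.66). Hdac2 read 0.08 and 1.83 with poly(I:C), 2.61 and 1.98 with GW3965 + poly(I:C) and 1.81 and 1.92 with GW7845 + poly(I:C). The poly(I:C) array of set A was the low one, and the differences were 2.53 in set A and 0.14 in set B. GW7845 with poly(I:C) gave Dnmt3a -1.28 (SE 0.48), Hdac2 +0.91 (SE 0.54) and Kat2b, an acetyltransferase, -0.60 (SE 0.38), with Dnmt3a at -1.93 in set A and -0.62 in set B.

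Brd2 was among the 3 members of smallest p in both comparisons of GW3965. Its differences were -1.90 and -0.46 within the sets beside LPS and -1.78 and -0.60 beside poly(I:C), and the array-set adjusted p-values were 0.344 and 0.587. With GW7845 it was -1.06 (SE 0.66) beside LPS and -0.06 (SE 0.66) beside poly(I:C). Set against each other under poly(I:C), GW7845 minus GW3965 was +1.13 for Brd2 (SE 0.66), with an interval of -0.30 to 2.55. Kmt2e, a methyltransferase-family protein that binds methylated histone H3, had the smallest p there, at +0.84 (SE 0.37, limma adjusted p = 1). Next by p under poly(I:C) were Dnmt3a at -0.99 (SE 0.48) and Kat6b at +0.73 (SE 0.36), so Brd2 was not among the 3 of smallest p. Under LPS the same contrast had Smarcad1 at -1.18 (SE 0.56), again through 1 array. Kat6b at +0.58 (SE 0.36) and Smarcal1 at +0.62 (SE 0.40) followed there. No member was called between the agonists under either stimulus, by limma with or without the block, where 0.0417% (poly(I:C)) and 0.0104% (LPS) of all probes were without it and 0.104% and 0.0626% with it. At an unadjusted p under 0.05 were 1 and 0 members (1.98% and 1.62% of all probes), and 5 and 1 with the block (7.95% and 5.94%).

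**Figure D4:**
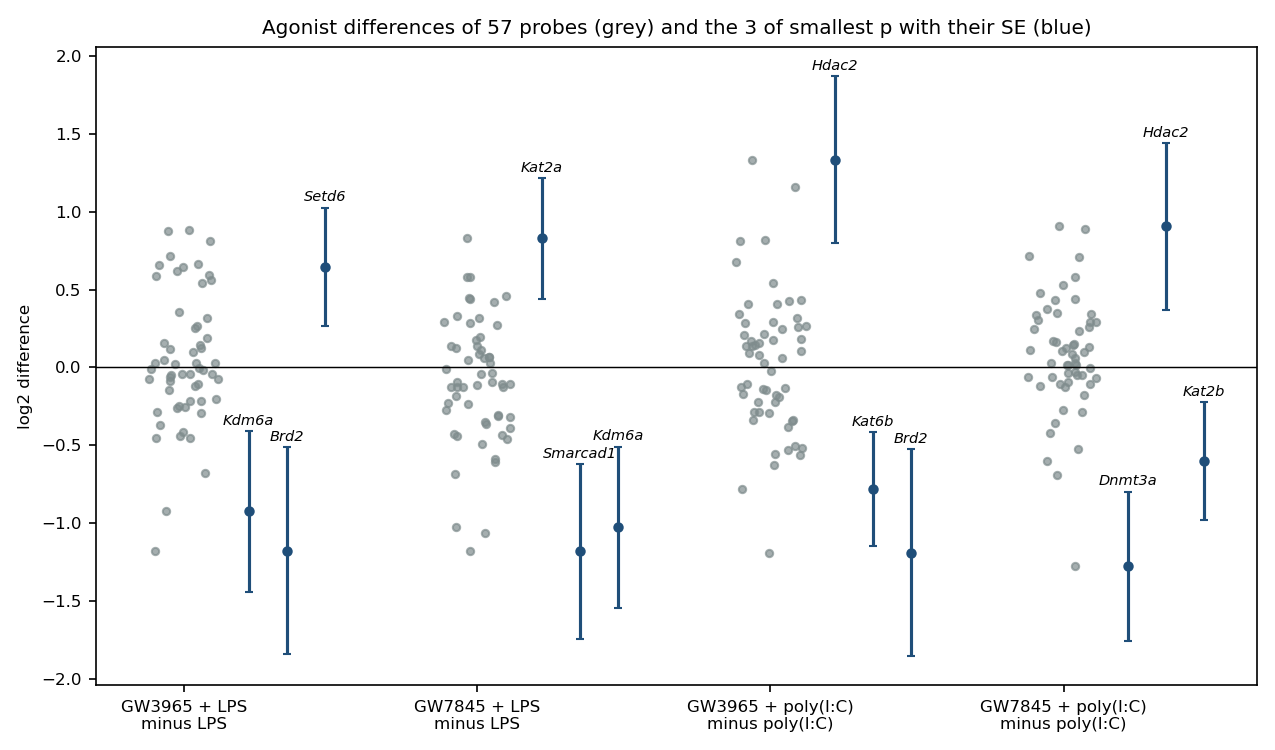
Log2 differences of the 57 probes (grey points) in the 4 agonist comparisons (x axis), with the 3 members of smallest p in each shown in blue with their SE. None was called, and the named values run from -1.28 (Dnmt3a) to +1.33 (Hdac2).

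Whether an agonist acted differently under the stimuli was tested as an interaction. Neither agonist gave a called member, and no probe of the array was called (0% in both, limma with or without the block). The members with an unadjusted p under 0.05 numbered 0 and 0 without the block (0.303% of all probes for GW3965, 0.48% for GW7845) and 1 and 3 with it (2.86% and 2.93%). For Hdac2 the GW3965 effect under poly(I:C) minus that under LPS was +1.29 (SE 0.76), and for Kdm5d the GW7845 effect differed by +1.09 (SE 0.57). Hdac5 and Dnmt3a, the members that fell most, had interactions of +0.36 (SE 0.70) and -0.16 (SE 0.68) for GW3965 and of +0.02 (SE 0.70) and -0.84 (SE 0.68) for GW7845. Both genes stayed below their untreated arrays in all 4 agonist groups.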

How the data were processed

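RNA from 14 samples in 7 groups was measured on 1-colour arrays. Per the labels, 0.5 µg of total RNA was labelled with biotin. The deposited values are linear intensities that the authors had scaled to an array median of 1. How they were scanned, background-corrected and scaled is not stated in the labels. Gene symbols come from the platform annotation: 8983 probes had 1 symbol, 1 had several and 1028 had none. Intensities under the 5th percentile of the positive ones (0.0686, log2 -3.87) were set to it before log2 was taken. Probes above their array's 20th percentile on at least 2 arrays were tested. Group means were fitted in limma 3.58.1 (R 4.3.3) on all arrays with an intensity trend, 7 residual degrees of freedom (6 with the array set as a block), two-sided, with Benjamini-Hochberg adjustment over all probes. SE and 95% intervals are those of the fit without a block. The code was tested on simulated data. Text names members called in either fit, the 3 of smallest p where none was, the narrowest interval of a family and fixed genes. Members and lists were chosen with earlier results of these data known. Set values are 1 array against 1, without a test. The number of arrays limits the precision.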

Additional observations from a re-analysis of the deposited data

How the results depend on the processing

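The calls of Hdac5 and Dnmt3a held under every alternative run for the stimulus comparisons. The number of members called moved from 2 to 5 (LPS) and from 3 to 6 (poly(I:C)) with the replicate number as a block, and from 6 to 9 over all groups. Same-numbered arrays lay in the same array set among the other 6 groups, but in the opposite set for GW7845 + LPS. The numbers therefore do not pair the GW7845 + LPS arrays with those of the other groups. With the array set as a block the counts were 10, 10 and 13, and over all groups the count was 3 with eBayes without trend, where Kmt5a (adjusted p = 0.0522), Chd3 (0.0925) and Sirt3 (0.0877) lost their limma call. Left out singly, arrays gave 2 to 3 (LPS), 2 to 3 (poly(I:C)) and 2 to 7 (all groups), with 0 to 0 in the other comparisons. An arm left with 1 array is assumed to vary like the other groups. The all-group count was 2 without untreated 1 and 3 without GW3965 + LPS 2 or GW3965 + poly(I:C) 2. Quantile normalization is given for LPS, poly(I:C) and all groups in that order. It took the median difference of all probes from 0.06, 0.10 and 0.10 to -0.08, -0.08 and -0.05, so its sign turned. The median of members went from -0.26, -0.31 and -0.28 to -0.29, -0.39 and -0.36. Called were 0 higher and 3 lower, 1 and 3, and 2 and 5 members. Differences that turned were all uncalled: Smarce1 under LPS (-0.15 without LPS 1, -0.06 without untreated 2, range -0.15 to 0.98), Kdm6a under LPS (0.11 without LPS 2, range -1.21 to 0.11), and over all groups Sirt1 (-0.59 to 0.027), Dnmt1 (-0.72 to 0.19) and Kdm5c (-0.41 to 0.14), each turned without untreated 1, and Smarcd1 (-0.038 to 0.39), turned without untreated 2. The cause was not tested. No detection calls were used, so levels near the floor are bounds.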
